A study of Mus musculus with 41 samples.

Results

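Liver tumours (hepatocellular carcinoma, HCC) of IgAkMup mice were compared with livers of the same genotype at the stage of non-alcoholic steatohepatitis (NASH), across all measured genes. The members were the 4 HCC libraries and the 3 NASH libraries of this genotype, chosen by their sample names, which makes 7 of the 41 libraries in the series. All were RNA-seq libraries of polyadenylated RNA from male C57BL/6 mice on a high-fat diet (HFD). Libraries are called by the numbers that end their column names, 5, 7, 8 and 9 for the tumours and 2, 3 and 6 for the NASH livers, since the columns do not carry the replicate numbers of the sample titles. The MupHe tumours (n = 4) and MupHe NASH livers (n = 3), also on HFD, served for comparison. The spread between libraries was also estimated from CD8kMup tumours on HFD, from controls on HFD of B6 and IgAkCLM, and from NC controls of IgAkMup, CD8kMup, MupHe and B6, with 3 libraries in each of these groups. The labels do not spell out the genotype names or NC, and they give no ages. In published work on this model, mice carry urokinase under the hepatocyte promoter of a major urinary protein gene and some were crossed to mice lacking IgA, the antibody class secreted at mucosal surfaces. Feeding such urokinase mice a fatty diet leads to steatohepatitis and then to HCC, so all groups compared here share that transgene where their names hold Mup. Values are regularized log2 (rlog2) levels, so that 1 unit stands for a factor of 2, and ± after a difference is its standard error. The files hold no read counts, so the depth of each library is unknown.

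Healthy liver is built of hepatocytes that divide metabolic work along the blood stream. Those near the portal vein make urea and glucose, and those around the central vein, under Wnt signals, make glutamine and hold most drug-metabolizing cytochrome P450 enzymes. Hepatocellular carcinoma arises from hepatocytes, often re-expresses genes of fetal liver, and takes its blood supply from capillary-like vessels in place of the fenestrated sinusoids. The resident macrophages of the liver, Kupffer cells, line those sinusoids.

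Of 12337 genes kept by a filter on the mean level (3 or more), 2857 were higher (23.2%) and 2551 lower (20.7%) in tumours than in NASH livers at an adjusted p under 0.05 (limma, Benjamini-Hochberg over all genes), 43.8% in all. All differences between groups below come from this fit of 35 libraries in 11 groups, and all adjusted p-values are those of limma. With a difference of at least 1 as well, 712 were higher (5.77%) and 727 lower (5.89%). The libraries of both groups did not overlap for 2579 genes on the higher side (20.9%) and 2412 on the lower side (19.6%). The median difference over all genes was 0.04. The share of calls in each direction depended on scaling, with 2568 genes higher and 2567 lower after quantile normalization and 2328 higher and 2998 lower after median centring. A fit of these 7 libraries alone called 1599 genes higher and 1620 lower. The fit of all groups without tumours 5 and 9 called 2410 higher and 2123 lower. Leaving out that pair leaves fewer libraries, which can by itself lose calls. Counts of list members below stand against the 23.2% higher and 20.7% lower among all genes.

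The tumours differed among themselves far more than the NASH livers did. The median SD of a gene was 0.261 over the 4 tumours and 0.128 over the 3 NASH livers, and 431 genes had an SD of at least 1 among tumours, against 9 among NASH livers. On the first principal component of the 7 libraries, with 58.8% of the variance, tumours 5, 7, 8 and 9 stood at 42.6, 25.1, 30.5 and 43.25, and the NASH livers between -51.0 and -43.55. On the second component (20.5%) tumours 5 and 9 stood at 24.01 and 31.5 and tumours 7 and 8 at -18.5 and -47.0, while the NASH livers stood between 1.84 and 6.2. The third (11.4%) set tumour 7, at 40.8, apart from tumour 8, at -23.7.

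Genes that bear on the labels were examined first. Plau, which encodes urokinase, stood at 6.61, 7.77, 6.74 and 5.83 in tumours, against 4.72, 5.68 and 5.66 in NASH livers. Every tumour lay above every NASH liver, with a difference of 1.39 ± 0.50 (limma adjusted p = 0.027). The exact permutation test gave p = 0.0571, the smallest that 4 against 3 libraries allow, and the limma call was lost in a fit of these libraries alone (adjusted p = 0.0517), after quantile normalization (0.0525), without tumour 7 (0.101) and without NASH liver 2 (0.148). Alb, which encodes albumin, the main plasma protein made by hepatocytes, stood at 19.65, 20.14, 18.86 and 19.69 in tumours and at 19.62, 19.21 and 19.44 in NASH livers, a difference of 0.16 ± 0.44 (adjusted p = 0.795). The sign of that difference turned on quantile normalization (-0.52) and without tumour 7 (-0.03). Serpina3c, a serine protease inhibitor gene, differed with the genotype name in livers without tumours. It lay between 8.94 and 10.18 in all 9 non-tumour libraries of the 3 groups named IgAk, and between 2.82 and 4.20 in all 22 libraries of the 7 groups whose names lack IgAk. In IgAkMup tumours it stood at 4.20, 6.74, 4.87 and 3.66, against 9.10, 9.08 and 8.99 in IgAkMup NASH livers. Tumour 9 thus lay within the range of the groups that lack IgAk, and tumour 5 at its upper end. Serpina3c was named for its difference between the IgAkMup and MupHe contrasts, so the values of those groups are no separate evidence. Serpina3c lies at chr12:104146907-104153929 and Igha, the constant region of the IgA heavy chain, at chr12:113256204-113260236 (GRCm38.p6). Igha itself is not analysed here.

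The tumours were marked by genes of fetal liver and liver cancer. Of 22 listed fetal and tumour markers, 12 were higher and 1 was lower, with a median difference of 1.58. Gpc3, an oncofetal glypican used in the diagnosis of HCC, stood at 10.11, 11.27, 7.01 and 10.97 in tumours, against 3.15, 3.73 and 4.01 in NASH livers. All tumours lay above all NASH livers, tumour 8 least, and Gpc3 rose by 6.21 ± 0.92 (limma adjusted p = 6.05e-06). In livers of the NC control group of the same genotype it stood at 3.87 ± 0.41 (SD, n = 3), near the NASH level. Spink1, a trypsin inhibitor gene often raised in liver cancer, stood at 10.28, 9.32, 5.55 and 10.51 in tumours, against 3.38, 3.01 and 3.95 in NASH livers. Tumour 8 was again the lowest, and the rise was 5.47 ± 0.75 (adjusted p = 1.87e-06). Afp, the fetal counterpart of albumin, stood at 8.40, 9.85, 5.45 and 7.98 in tumours, against 4.23, 3.09 and 3.51 in NASH livers, a rise of 4.31 ± 0.70 (adjusted p = 1.92e-05). Apela, which encodes an embryonic peptide ligand of the apelin receptor, was even among tumours, at 7.94, 7.54, 8.36 and 8.62, against 3.09, 3.55 and 3.64 in NASH livers (4.68 ± 0.25, adjusted p = 3e-13).

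Other genes among the 15 largest rises, taken from genes past the threshold whose groups did not overlap, were of several kinds. Igfbp1, a secreted binding protein for insulin-like growth factors, rose by 3.80 ± 0.53, and stood highest in tumour 7, at 13.89. Klhl13, an adaptor of a cullin ubiquitin ligase, stood at 11.55, 8.69, 7.64 and 11.98 in tumours, against 5.74, 5.83 and 6.42 in NASH livers, so that tumours 5 and 9 were well above tumours 7 and 8. Igdcc4, a surface protein of the immunoglobulin superfamily, rose by 3.62 ± 0.40, Parm1, a mucin-like membrane protein, by 3.60 ± 0.48, and Myo5c, a myosin of epithelial cells, by 3.54 ± 0.46. Rragd, a GTPase that signals nutrient state at the lysosome, stood at 9.27, 7.66, 9.84 and 9.63 in tumours, against 5.00, 5.17 and 5.77 in NASH livers. The list of lysosomal genes of the MiT factor family to which Rragd belongs had 3 of 24 members higher and 1 lower, and 8 higher without tumours 5 and 9. The 12.5% higher and 4.17% lower were below the shares of all genes (23.2% and 20.7%).

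**Figure D1:**
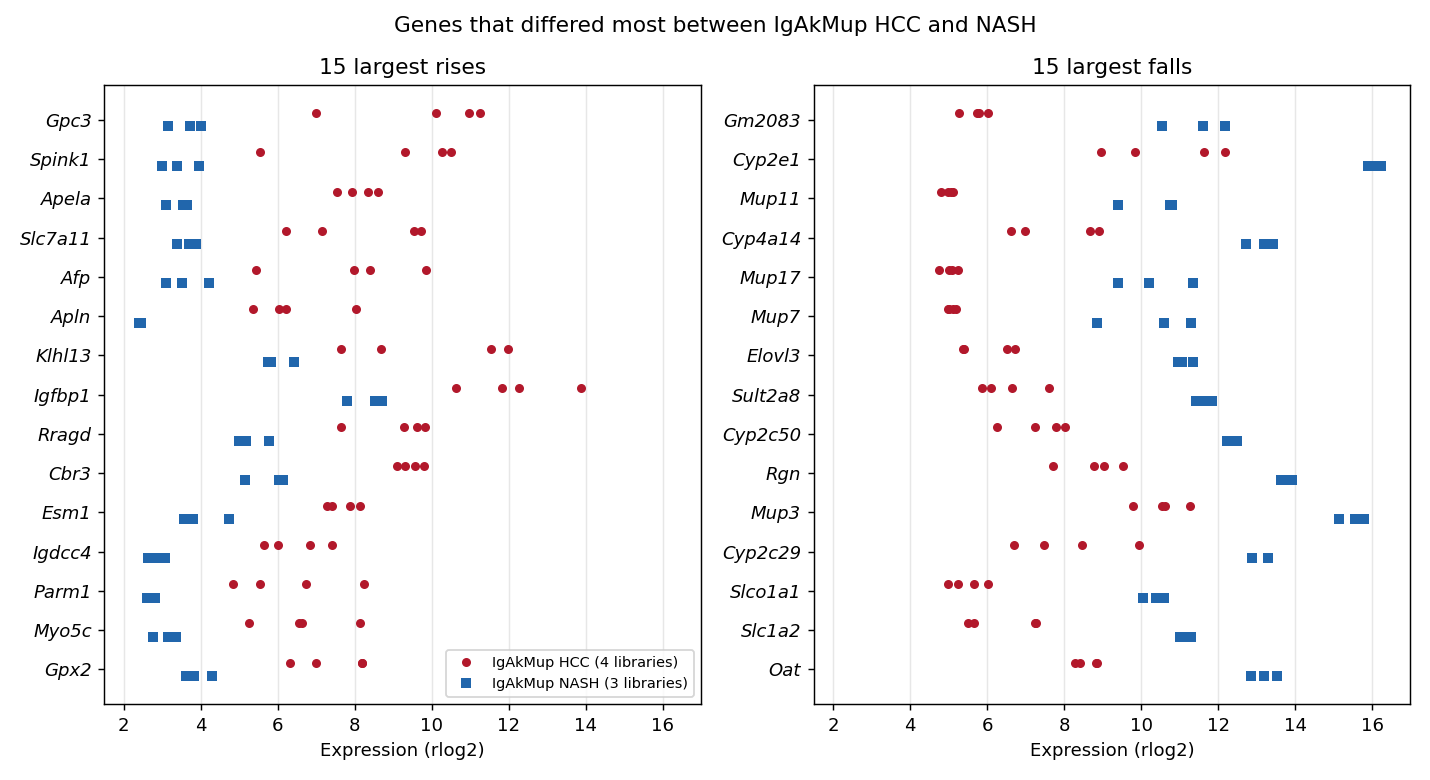
Expression (rlog2, horizontal axis) of the 15 genes with the largest rise (left panel) and the 15 with the largest fall (right panel) between IgAkMup HCC (red circles, 4 libraries) and IgAkMup NASH (blue squares, 3 libraries). Points are single libraries, and only genes past the threshold whose groups did not overlap could be chosen; Gpc3 and Spink1 have a low tumour at 7.01 and 5.55, while Mup7, Mup11 and Mup17 lie between 4.75 and 5.24 in every tumour.

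Loss of hepatocyte genes made up the other side of the comparison. Cyp2e1, the pericentral cytochrome P450 that oxidizes ethanol, stood at 12.18, 9.84, 11.65 and 8.96 in tumours, against 16.23, 15.88 and 16.06 in NASH livers. It fell by 5.40 (SE 0.59, adjusted p = 7.62e-08). Of 26 kept P450 and drug metabolism genes none was higher and 21 were lower (median -2.21). Cyp2c29 fell by 4.87 and Cyp2c50 fell by 5.06, though reads of members of the Cyp2c family may be shared between near-identical copies. Cyp1a2, which metabolizes caffeine, stood at 7.61, 9.15, 8.77 and 5.99 in tumours, against 11.92, 11.52 and 11.53 in NASH livers. The list's median was -2.99 in tumour 5 and -2.75 in tumour 9, and -1.83 and -1.57 in tumours 7 and 8.

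Genes of the pericentral zone that depend on Wnt signalling were low in all tumours. Of 20 such genes 17 were lower and none higher (median -2.46), and 17 were also lower without tumours 5 and 9. Glul, which encodes glutamine synthetase, stood at 10.55, 9.64, 12.16 and 9.62 in tumours, against 13.99, 14.07 and 13.90 in NASH livers (-3.49 ± 0.46, adjusted p = 1.25e-06). Slc1a2, a glutamate transporter gene, fell by 4.74. Oat, which encodes ornithine aminotransferase, fell by 4.60 (SE 0.35). The Wnt target Axin2 stood at 4.65, 3.99, 4.72 and 4.69 in tumours, against 5.68, 6.11 and 6.51 in NASH livers. Lgr5, a receptor for the R-spondins that amplify Wnt signals, stood between 3.53 and 3.93 in tumours, against 5.44 to 5.74 in NASH livers, and Tbx3, a further Wnt target, fell by 2.75. Wnt2, which the sinusoidal endothelium supplies, fell by 1.90 (adjusted p = 5.29e-08).

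Genes that male livers express under growth hormone control fell as well, with 16 of 19 lower and none higher (median -2.26). Elovl3, a fatty acid elongase, stood at 6.53, 5.38, 6.74 and 5.39 in tumours, against 10.97, 11.36 and 11.06 in NASH livers. Of the genes for major urinary proteins, Mup3 fell by 4.94, Mup7 fell by 5.17 and Mup11 fell by 5.33. Gm2083, a predicted gene, had the largest fall of all (-5.73). Reads of these genes may be shared between near-identical copies, so single members are uncertain. Slco1a1, a transporter of bile salts and steroids, fell by 4.86. Prlr, the prolactin receptor, fell by 2.58, and Igf1, the growth factor that the liver releases under growth hormone, fell by 2.13. The list of the growth hormone axis to which both belong had 4 of 14 members higher and 4 lower (median -0.05). That is 28.6% each way, near the shares of all genes (23.2% and 20.7%). Of 11 kept genes that female livers favour, 4 were lower and 1 higher, and their median was far lower in tumours 5 and 9 (-2.50 and -2.43) than in tumours 7 and 8 (0.00 and -0.78).

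Bile acid synthesis and transport showed 16 of 21 members lower and 1 higher (median -1.68). Cyp7a1, the rate-limiting enzyme of bile acid synthesis, stood at 6.78, 4.84, 5.67 and 8.76 in tumours, against 8.90, 9.74 and 9.54 in NASH livers (-2.88 ± 0.74, adjusted p = 0.00244). Slc10a1, the sodium-dependent uptake transporter for bile salts, fell by 3.15, and Slco1b2, an organic anion transporter of hepatocytes, fell by 3.53. The tumour medians of this list lay between -1.89 and -1.52.

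Genes of nitrogen metabolism were lower. Of 26 genes of the urea cycle and amino acid breakdown 24 were lower and 1 higher (median -1.69). Ass1, which makes argininosuccinate, stood at 8.95, 8.64, 7.81 and 9.26 in tumours, against 11.39, 10.93 and 10.98 in NASH livers (-2.43 ± 0.29, adjusted p = 2.9e-07). Prodh, which starts proline breakdown, fell by 2.66, Hpd, an enzyme of tyrosine breakdown, fell by 2.55, and Otc, an enzyme of the urea cycle, fell by 2.37. Cps1, the first enzyme of that cycle, stood at 13.16, 12.92, 11.82 and 14.26 in tumours, against 14.40, 13.93 and 14.44 in NASH livers. Its groups overlap through tumour 9, and its call was lost in a fit of these libraries alone (adjusted p = 0.116) and after quantile normalization (0.174).

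Genes of mitochondrial fuel use were lower nearly throughout. Of 28 genes of fatty acid oxidation 27 were lower and none higher (median -1.16), with 19 lower after quantile normalization. Cyp4a14, which hydroxylates fatty acids and responds to the receptor PPARα, stood at 8.91, 6.63, 8.67 and 6.98 in tumours, against 13.44, 12.73 and 13.19 in NASH livers. Cyp4a10, of the same family, fell by 3.99, and Acaa1b, a peroxisomal thiolase, fell by 2.57. Ppara itself stood at 10.07, 10.35, 10.70 and 10.42 in tumours, against 11.27, 11.30 and 11.52 in NASH livers (-0.98 ± 0.20, adjusted p = 0.000325). Of 27 genes of oxidative phosphorylation 26 were lower and none higher (median -0.77). After quantile normalization 16 were lower, with a median of -0.44. Sdha, a subunit of respiratory complex II, stood between 10.52 and 11.26 in tumours, against 12.24 in each NASH liver. The tumour medians of both lists lay close together, from -1.30 to -1.05 for fatty acid oxidation and from -0.82 to -0.62 for oxidative phosphorylation.

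Genes of glucose production were lower in part. Pck1, the rate-limiting enzyme of gluconeogenesis, stood at 9.84, 10.62, 8.86 and 11.47 in tumours, against 13.92, 13.38 and 13.39 in NASH livers (-3.36 ± 0.39, adjusted p = 2e-07). Of 13 listed genes 7 were lower and none higher, but the count was 4 without NASH liver 2, 11 without tumour 8, 4 without tumours 5 and 9 and 3 in a fit of these libraries alone. Tumour 8 was nearly level with NASH livers for this list (median -0.07), and tumours 5, 7 and 9 stood at -1.14, -1.37 and -1.03. Of 16 glycolysis genes 7 were higher and 3 lower (4 higher in a fit of these libraries alone), led by Pkm, a pyruvate kinase that fetal liver and tumours favour. Pkm stood at 8.93, 9.04, 10.90 and 9.34 in tumours, against 7.71, 7.94 and 7.69 in NASH livers (1.77 ± 0.29, adjusted p = 1.74e-05). Pfkp, a phosphofructokinase, rose by 1.66.

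Secreted plasma proteins did not move as a block. Of 26 such genes 3 were higher (11.5%) and 8 lower (30.8%), against 23.2% and 20.7% of all genes. The list's median was -0.09. Quantile normalization turned this to 9 higher and 3 lower (median 0.27). The counts also moved when single libraries were left out, to 7 higher and 5 lower without tumour 8 and to 4 lower without NASH liver 3. The small apolipoprotein gene Apoc3 fell by 2.03, a call lost without tumours 5 and 9 (adjusted p = 0.0777), Apoa2 fell by 1.97, and Ttr, which encodes transthyretin, fell by 1.54. Of 17 acute phase genes 6 were higher and 4 lower, with 2 higher without tumour 7 and 3 higher and 2 lower without NASH liver 2 or 6. Without tumours 5 and 9 it was 3 higher and none lower, with a median of 0.56 against 0.03 with all tumours. Lcn2, an iron-binding defence protein, stood at 11.54, 12.52, 11.27 and 10.31 in tumours, against 7.28, 8.30 and 8.38 in NASH livers (3.42 ± 0.43, adjusted p = 6.11e-07). Orm3 (-1.91, limma adjusted p = 0.0113) and Saa2 (-1.60, 0.0167) were the acute phase genes with the next largest differences. Both calls were lost without tumours 5 and 9 (0.0898 and 0.268). Hamp2, a hepcidin paralogue from the list of iron and metal handling, fell by 3.53. Of the 20 genes of that list 4 were higher (20%) and 3 lower (15%), against 23.2% and 20.7% of all genes. Of 20 hepatocyte transcription factors 11 were lower and 1 higher (8 lower and none higher in a fit of these libraries alone). Nr1i3, the xenobiotic receptor CAR, stood at 6.10, 7.23, 8.54 and 5.16 in tumours, against 9.48, 9.14 and 9.40 in NASH livers. It fell by 2.58, and the call was lost without tumours 5 and 9 together (-1.46, adjusted p = 0.0753). Hnf4a, the main factor of hepatocyte identity, stood at 11.93 to 12.26 in tumours, against 12.30 to 12.41 in NASH livers (-0.22 ± 0.12, adjusted p = 0.126). After quantile normalization Hnf4a was instead higher in tumours (0.49, adjusted p = 0.00565).

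Lipid synthesis separated the tumours from each other. For 21 genes of fatty acid and triglyceride synthesis the medians were -1.18 in tumour 5, -0.50 in tumour 7, 0.24 in tumour 8 and -1.13 in tumour 9. Fasn, the fatty acid synthase, stood at 9.79, 11.52, 14.37 and 9.46 in tumours, against 11.75, 12.03 and 11.92 in NASH livers, so tumour 8 lay above and the others below. The difference of the means did not pass (-0.61 ± 0.74, adjusted p = 0.519), and its sign turned without tumours 5 and 9 (1.05, adjusted p = 0.242). In all, 9 members of this list were lower and 1 higher, with 6 lower in a fit of these libraries alone, 5 after quantile normalization and 6 lower and 4 higher without tumours 5 and 9. Scd2, a fatty acid desaturase, was the one that rose, to 10.51, 10.76, 11.57 and 9.30 in tumours, against 7.19, 7.08 and 7.90 in NASH livers (3.15 ± 0.49, adjusted p = 1.16e-05). Cholesterol synthesis split the tumours too. Its 22 genes had medians of -1.06 in tumour 5 and -0.78 in tumour 9 but 0.44 in tumour 7 and 0.67 in tumour 8. None was higher and 2 were lower with all tumours, while 6 were higher and none lower without tumours 5 and 9, and 6 were lower without tumour 8 and 5 without tumour 7. Of 16 lipid droplet genes 8 were lower and none higher, with 5 lower without tumour 9, NASH liver 3 or NASH liver 6. Fitm1, which aids droplet formation, fell by 3.15, and Mgll, a lipase for monoglycerides, fell by 1.82.

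Targets of NRF2, the transcription factor of the response to oxidants, were higher in part, with 10 of 22 higher and 1 lower (median 0.71). After quantile normalization 16 were higher. Slc7a11, the cystine importer, stood at 6.22, 9.73, 9.54 and 7.16 in tumours, against 3.38, 3.88 and 3.71 in NASH livers (4.51 ± 0.58, adjusted p = 8.71e-07). Cbr3, a carbonyl reductase, was even, at 9.32, 9.81, 9.10 and 9.58 in tumours, against 5.14, 6.15 and 6.03 in NASH livers. Gpx2, a glutathione peroxidase, rose by 3.52 and Nqo1, a quinone reductase, by 1.82 (adjusted p = 3.11e-08). Hmox1, the haem oxygenase, stood at 7.40, 8.53, 8.75 and 7.04 in tumours, against 7.88, 8.04 and 8.10 in NASH livers, with no detectable difference (adjusted p = 0.874).

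Slc7a11 also belongs to the integrated stress response, a programme in which the factor ATF4 turns on genes that import and make amino acids when protein synthesis is slowed. Of 22 genes of this list 11 were higher and 1 lower (median 0.66), and 11 were higher in a fit of these libraries alone. The enzymes of serine synthesis stood out. Phgdh, the first of them, stood at 7.52, 4.84, 6.06 and 6.49 in tumours, against 2.89, 2.64 and 2.93 in NASH livers (3.41 ± 0.47, adjusted p = 1.96e-06). The NASH values of Phgdh lay below the filter level of 3, so it may have been kept only through groups where it is high. Psat1, the second, stood at 7.79, 8.93, 7.98 and 7.86 in tumours, against 4.67, 5.32 and 5.30 in NASH livers. Psph, the last, rose by 1.15 (adjusted p = 1.32e-06). Shmt2, which takes serine into the mitochondrial folate cycle, fell by 0.83. Asns, the asparagine synthetase, stood at 8.06, 8.01, 7.50 and 8.02 in tumours, against 7.06, 6.03 and 4.60 in NASH livers, where it varied widely (2.00 ± 0.73, adjusted p = 0.0284). Its call was lost without tumour 5 (adjusted p = 0.0523), tumour 9 (0.0503), NASH liver 3 (0.057) or NASH liver 6 (0.187). Fgf21, a stress hormone of liver, rose by 1.90. Chac1 and Ddit3, which mark a later arm of the response, did not pass, with differences of 0.37 and -0.35 (adjusted p = 0.382 and 0.527).

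The promoters of Slc7a11 and Asns are shown because both hold the ATF4 element. They run from 250 bases before to 50 after the RefSeq start, on GRCm38.p6, 5′ to 3′ on the gene's strand, at chr3:50443564-50443863 and chr6:7693160-7693459, both on the minus strand. Capitals mark TGATGNAA or its reverse complement TTNCATCA.
Slc7a11: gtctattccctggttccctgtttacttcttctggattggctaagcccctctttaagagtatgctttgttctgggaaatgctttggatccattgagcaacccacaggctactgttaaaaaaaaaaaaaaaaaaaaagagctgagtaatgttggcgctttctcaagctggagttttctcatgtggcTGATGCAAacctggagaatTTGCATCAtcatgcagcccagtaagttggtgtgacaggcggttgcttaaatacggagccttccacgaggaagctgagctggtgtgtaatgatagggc
Asns: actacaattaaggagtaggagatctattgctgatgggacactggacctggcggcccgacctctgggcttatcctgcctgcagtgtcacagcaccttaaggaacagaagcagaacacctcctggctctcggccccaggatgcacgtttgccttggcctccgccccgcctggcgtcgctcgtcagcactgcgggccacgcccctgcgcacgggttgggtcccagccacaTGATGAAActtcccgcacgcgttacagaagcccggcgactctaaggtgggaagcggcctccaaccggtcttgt
The Slc7a11 promoter holds 2 matches and the Asns promoter 1. Of the 22 genes of the list 20 had a promoter in the RefSeq table, and 8 of these held the element on either strand (40%). It stood in 3 of the 11 higher genes, against 4.51% of 27025 mouse genes and 2.71% of 9577 measured genes with a promoter. A gene was counted if any of its promoters held the element. For the NRF2 list, the antioxidant response element TGACNNNGC (GCNNNGTCA on the other strand) stood in 6 of 18 genes with a promoter (33.3%). That compares with 14% of all such genes and 17% of the measured ones, and it stood in 2 of 10 higher genes. These matches describe the sequence in the window only.

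The unfolded protein response of the endoplasmic reticulum did not follow. Of 20 chaperones and related genes none was higher and 3 were lower (4 higher and none lower after quantile normalization, and none lower without tumours 5 and 9). The list's median was 0.46 in tumour 7 and between -0.46 and -0.38 in tumours 5, 8 and 9.

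Genes of cell division were higher. Of 31 cell cycle genes 22 were higher and none lower (median 0.83), with 14 higher in a fit of these libraries alone and 12 without tumours 5 and 9. Mki67, a marker of cycling cells, stood at 7.28, 6.68, 7.49 and 8.34 in tumours, against 6.09, 6.16 and 6.03 in NASH livers (1.35 ± 0.29, adjusted p = 0.000452). Top2a, the topoisomerase that untangles chromosomes, rose by 1.37, Tpx2, a spindle factor, by 1.30 and Plk1, a mitotic kinase, by 1.15. Cdk1, the kinase that starts mitosis, stood at 6.58, 5.68, 6.06 and 7.01 in tumours, against 5.60, 5.71 and 5.38 in NASH livers. Tumour 7 lay among the NASH livers for Cdk1, whose rise of 0.77 ± 0.23 lost the call in a fit of these libraries alone (adjusted p = 0.0938) and without tumours 5 and 9 (0.286). Tumour 7 also had the lowest list median (0.31), and tumour 9 the highest (1.29).

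Promoters of such genes often hold the cell cycle genes homology region (CHR), TTTGAA, through which the DREAM complex keeps them silent in resting cells. Those of Cdk1 (chr10:69352863-69353162, minus strand) and Ccnb2 (chr9:70421505-70421804, minus strand), which encodes a mitotic cyclin, are shown with TTTGAA or its complement TTCAAA in capitals.
Cdk1: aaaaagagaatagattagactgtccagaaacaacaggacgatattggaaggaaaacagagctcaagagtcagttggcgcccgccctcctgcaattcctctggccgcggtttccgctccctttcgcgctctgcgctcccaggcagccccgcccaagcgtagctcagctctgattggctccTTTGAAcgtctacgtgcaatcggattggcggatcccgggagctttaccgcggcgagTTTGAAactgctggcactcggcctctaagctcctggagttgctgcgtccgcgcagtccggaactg
Ccnb2: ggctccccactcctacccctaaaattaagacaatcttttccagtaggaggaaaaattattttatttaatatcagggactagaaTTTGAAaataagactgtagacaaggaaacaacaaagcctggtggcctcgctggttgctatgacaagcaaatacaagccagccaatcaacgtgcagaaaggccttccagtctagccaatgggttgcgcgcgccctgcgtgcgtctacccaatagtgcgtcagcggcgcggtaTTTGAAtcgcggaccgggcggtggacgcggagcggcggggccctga
Each holds 2 matches. Of the 25 cell cycle genes with a promoter in the table, 12 held the motif (48%), against 20.2% of 27025 genes and 14.4% of the measured ones. All 12 were among the 17 of these genes that were higher in tumours. Ccnb2 stood at 5.61, 5.07, 5.46 and 5.81 in tumours, against 4.45, 4.72 and 4.78 in NASH livers (0.84 ± 0.22, adjusted p = 0.00285), a call lost without tumours 5 and 9 (0.0597).

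Targets of p53, the factor that halts damaged cells, were also higher in part, with 10 of 21 higher and 2 lower. Phlda3, an inhibitor of AKT signalling, stood at 7.79, 7.63, 8.66 and 6.93 in tumours, against 5.04, 5.14 and 4.75 in NASH livers (2.78 ± 0.30, adjusted p = 6.76e-08). Cdkn1a, the cell cycle inhibitor p21, rose by 1.39 and Tnfrsf10b, a death receptor, by 1.24. Of 17 targets and members of the Hippo pathway 10 were higher and none lower, with 6 higher in a fit of these libraries alone or without tumours 5 and 9. Ctgf, a matrix protein under control of YAP, stood at 8.68, 7.90, 7.42 and 10.07 in tumours, against 6.37, 6.19 and 5.90 in NASH livers. Ankrd1 stood at 8.31, 5.22, 3.63 and 7.79 in tumours, against 4.20, 3.92 and 3.93 in NASH livers, so tumours 5 and 9 were high and tumour 8 lay below the NASH livers (2.22 ± 0.68). Its call was lost without tumour 5 (adjusted p = 0.0541), without both (0.568) and in a fit of these libraries alone (0.147). Myc, the growth-promoting transcription factor, was even, at 7.02, 6.66, 7.07 and 7.44 in tumours, against 5.16, 5.04 and 5.08 in NASH livers (1.95 ± 0.27, adjusted p = 2.73e-06). It led the immediate early genes, of which 9 of 17 were higher and none lower, with 5 in a fit of these libraries alone.

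**Figure D2:**
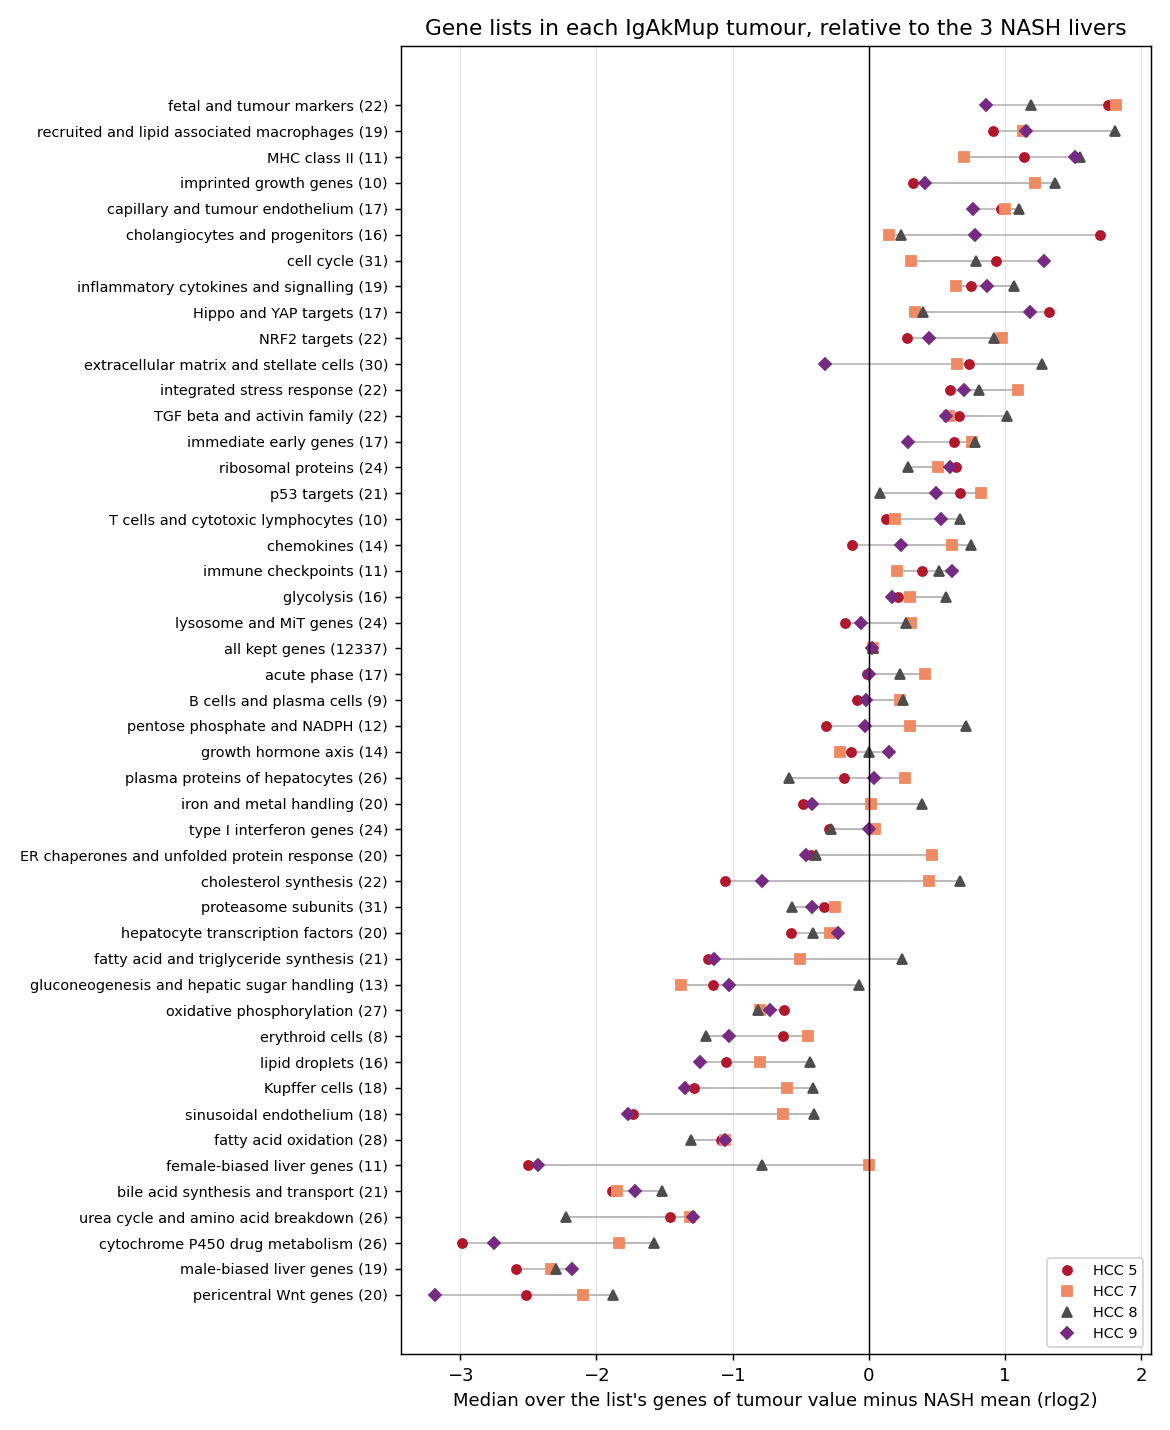
Median over each gene list of the tumour's value minus the mean of the 3 NASH livers (rlog2, horizontal axis), by list (rows, with the number of measured genes), for tumours 5 (circle), 7 (square), 8 (triangle) and 9 (diamond). A grey line joins the 4 tumours; the fatty acid oxidation points lie within -1.30 and -1.05, whereas cholesterol synthesis spans -1.06 to 0.67.

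In bulk tissue, fewer cells of a type and less RNA per cell cannot be told apart, and this holds for all cell type lists that follow. The endothelium of tumours differed from that of NASH livers. Of 18 genes of sinusoidal endothelium 14 were lower and 1 higher (median -1.06), with 8 lower in a fit of these libraries alone and 7 without tumours 5 and 9. Clec4g, a lectin of sinusoids, stood at 5.60, 7.47, 7.91 and 4.74 in tumours, against 9.49, 9.21 and 8.97 in NASH livers. Stab2, the scavenger receptor for hyaluronan, stood at 6.33, 7.76, 8.45 and 6.60 in tumours, against 8.18, 8.18 and 8.33 in NASH livers, so tumour 8 was not lower. Its difference of -0.94 ± 0.36 (adjusted p = 0.0332) lost the call in a fit of these libraries alone (0.174), without tumour 5 (0.153) or tumour 9 (0.12), without both (difference -0.12, adjusted p = 0.793) and without any one NASH liver (0.0672 to 0.0863). Of 17 genes of capillary and tumour endothelium 12 were higher and 2 lower (median 1.00), and 12 were also higher without tumours 5 and 9. Cd34, a surface protein of capillaries, stood at 8.25, 7.97, 7.83 and 7.37 in tumours, against 5.49, 5.42 and 5.28 in NASH livers (2.45 ± 0.33, adjusted p = 1.88e-06). Esm1, secreted by sprouting tip cells, stood at 7.41, 8.14, 7.90 and 7.28 in tumours, against 3.57, 4.75 and 3.81 in NASH livers. Apln, which encodes the peptide apelin, stood at 6.21, 8.03, 5.36 and 6.04 in tumours, against 2.42, 2.41 and 2.45 in NASH livers (3.99 ± 0.45, adjusted p = 1.04e-07). Its NASH values lay below the filter level of 3, so it may have been kept only through groups where it is high. Apln and Apela, the known ligands of the apelin receptor, were both among these 15 rises. The receptor gene Aplnr, listed with the capillary genes, did not pass the filter on low values.

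Matrix genes varied by tumour. Of 30 genes of extracellular matrix and stellate cells 15 were higher and 2 lower, with 5 higher and none lower in a fit of these libraries alone, 21 higher without tumours 5 and 9 and 5 lower without tumour 8. The basement membrane collagen gene Col4a1 rose by 2.27 ± 0.21 and its partner Col4a2 rose by 2.31 ± 0.21, with no overlap between groups. Col1a1, the main fibre collagen, stood at 8.20, 8.66, 9.38 and 6.29 in tumours, against 6.41, 6.82 and 6.88 in NASH livers, so tumour 9 lay below all NASH livers, and the call was lost in a fit of these libraries alone (adjusted p = 0.128). Dcn, a small matrix proteoglycan, stood at 8.83, 9.79, 10.84 and 6.05 in tumours, against 10.89, 10.94 and 11.08 in NASH livers, again lowest in tumour 9. Its fall of 2.10 did not pass in a fit of these libraries alone (adjusted p = 0.143). Of 22 genes of the TGF-β and activin family 11 were higher and 3 lower, with 7 higher in a fit of these libraries alone. Inhbb, an activin subunit, rose by 2.13 ± 0.25 (adjusted p = 2.7e-07).

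Of 16 bile duct and progenitor genes 9 were higher and 2 lower, with 8 or 9 higher when single libraries were left out, but 3 were higher and 1 lower without tumours 5 and 9. The list's median was 1.70 in tumour 5, 0.78 in tumour 9, 0.23 in tumour 8 and 0.15 in tumour 7. Spp1, which encodes osteopontin and is made by ducts and by macrophages, stood at 15.24, 11.97, 12.73 and 12.46 in tumours, against 10.37, 10.61 and 10.76 in NASH livers. The defining duct markers Krt19 and Epcam stood at 6.30 and 7.55 in tumour 5, between 3.33 and 5.24 in the other tumours and between 4.49 and 5.54 in NASH livers. Neither passed (adjusted p = 0.67 and 0.853).

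Macrophage genes moved in opposite directions. Of 18 Kupffer cell genes 11 were lower and 1 higher (median -0.97), with 7 lower without tumours 5 and 9. Marco, a scavenger receptor, stood between 3.67 and 3.89 in tumours, against 6.67, 6.98 and 7.06 in NASH livers (-3.16 ± 0.39, adjusted p = 5.24e-07). Timd4, which binds dying cells, stood between 3.62 and 4.05 in tumours, against 6.17, 5.95 and 5.72 in NASH livers. Clec4f, the most specific Kupffer marker in mice, stood at 6.73, 8.20, 9.22 and 5.08 in tumours, against 10.28, 10.20 and 10.03 in NASH livers, with tumours 7 and 8 closest to the NASH level. Genes of recruited and lipid-associated macrophages were higher, 15 of 19 with none lower (median 1.37), and 17 were higher without tumours 5 and 9. Itgax, the integrin CD11c, stood at 7.08, 6.21, 7.27 and 7.63 in tumours, against 4.80, 4.55 and 5.23 in NASH livers (2.19 ± 0.29, adjusted p = 1.51e-06). Cd63, a tetraspanin of endosomes, rose by 2.80 and Fabp5, a fatty acid binding protein, by 2.38. Gpnmb, a marker of lipid-associated macrophages, stood at 6.48, 8.45, 8.71 and 4.72 in tumours, against 5.96, 6.15 and 6.55 in NASH livers, and did not pass (adjusted p = 0.25). Of 11 MHC class II genes 9 were higher and none lower (median 1.14), and 8 or 9 were higher without any single tumour or NASH liver. Cd74, the chain that guides class II assembly, stood at 12.43, 11.77, 12.71 and 12.87 in tumours, against 10.73, 10.41 and 10.42 in NASH livers (1.92 ± 0.29, adjusted p = 6.03e-06). Ciita, the master regulator of class II genes, rose by 1.45.

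Lymphocyte genes were near the limit of this measurement. Of 32 T cell and cytotoxic genes 10 passed the filter on low values, and the genes of the CD3 and antigen receptor chains Cd3e, Cd3d, Cd247 and Trac did not. Of the 10, 5 were higher and 1 lower, but none was higher in a fit of these libraries alone, 2 to 4 were higher when single libraries were left out and 2 without tumours 5 and 9. Cd8a, a chain of the CD8 coreceptor, stood at 3.76, 3.92, 4.85 and 5.02 in tumours, against 3.75, 3.70 and 3.97 in NASH livers, so tumours 8 and 9 were above the NASH livers. Its difference of 0.58 ± 0.23 (adjusted p = 0.0413) lost the call in a fit of these libraries alone (0.217), after quantile normalization (0.207), and without tumour 8 (0.145), tumour 9 (0.184), NASH liver 2 (0.11) or NASH liver 3 (0.119). Lck, a kinase of T cell signalling, stood at 4.41, 4.10, 4.63 and 6.87 in tumours, against 3.83 ± 0.15 in NASH livers (SD, n = 3), with tumour 9 far above the rest. Its call was lost in a fit of these libraries alone (adjusted p = 0.182). The 1 lower gene was Zap70, which had the largest difference of the list (-1.52, adjusted p = 0.000443). Unlike those of Cd8a and Lck, the call of Zap70 was kept in a fit of these libraries alone. Of 11 kept immune checkpoint genes 5 were higher and 1 lower, with 3 higher without tumours 5 and 9. Cd276, Vsir and Pvr, which encode surface proteins that restrain or engage lymphocytes, were higher by 1.15, 1.14 and 0.93. Cd274, which encodes PD-L1, stood between 5.43 and 5.63 in tumours, against 5.03 to 5.61 in NASH livers (adjusted p = 0.447).

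Because the genotype names hold IgA, genes of antibody handling were followed. Jchain, which joins IgA and IgM units in plasma cells, stood at 6.48, 9.77, 8.91 and 7.23 in tumours, against 7.10, 6.51 and 5.81 in NASH livers. Tumours 7 and 8 were high, and tumour 5 overlapped the NASH livers. Its rise of 1.63 ± 0.49 (adjusted p = 0.00916) lost the call without tumour 7 (0.0514), without NASH liver 6 (0.0658) and in a fit of these libraries alone (0.143). Pigr, the receptor that carries such antibodies across epithelia, stood at 13.90, 11.77, 12.57 and 13.32 in tumours, against 13.64, 13.51 and 13.62 in NASH livers, with no detectable difference (-0.70 ± 0.67, adjusted p = 0.415). Of 9 kept B and plasma cell genes of 27 listed, 3 were higher and none lower, with 1 of each in a fit of these libraries alone. Prdm1, a regulator of plasma cells also used by T cells, stood between 3.95 and 4.62 in tumours, against 3.05 to 3.25 in NASH livers.

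Most kept inflammatory genes were higher, and interferon genes were mixed. Of 24 listed inflammatory genes, Tnf, Il6, Il10, Lta and Tnfsf13b did not pass the filter on low values. Of the 19 kept, 13 were higher and 2 lower (median 0.81), with 12 or 13 higher without any single library. Ltb, a lymphotoxin chain, rose by 1.61, Casp4, an inflammatory caspase, by 1.58 and Icam1, an adhesion receptor for leukocytes, by 1.53. Of 24 type I interferon genes 3 were higher and 4 lower (median -0.16), and none was higher without tumour 9 or without NASH liver 2. These shares of 12.5% and 16.7% were below those of all genes (23.2% and 20.7%). Apol9a fell by 1.90 and Apol9b fell by 2.16, both interferon-induced genes whose reads may be shared. Of 14 kept chemokine genes of 26 listed, 4 were higher and 3 lower, with 7 higher without tumours 5 and 9. The 28.6% higher and 21.4% lower were near the shares of all genes (23.2% and 20.7%). Cx3cl1, the ligand of CX3CR1, stood at 6.92, 6.00, 7.14 and 6.77 in tumours, against 4.10, 4.35 and 4.67 in NASH livers (2.33 ± 0.28, adjusted p = 2.95e-07). Its receptor gene Cx3cr1 rose by 1.90. Ccl2, which attracts monocytes, rose by 1.63, while Cxcl12 fell by 1.16.

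Genes of the machinery of protein turnover shifted by small amounts. Of 24 ribosomal protein genes 20 were higher and none lower (median 0.49), with 12 in a fit of these libraries alone, 8 without tumours 5 and 9 and 13 without NASH liver 6. Rplp0, of the ribosomal stalk, stood at 12.62, 12.07, 12.02 and 12.37 in tumours, against 11.54, 11.36 and 11.18 in NASH livers. Of 31 proteasome genes 21 were lower and none higher (median -0.37), with 12 in a fit of these libraries alone, 12 lower and 1 higher after quantile normalization and 13 lower without NASH liver 2.

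Markers of other tissues were also counted. Of 8 kept erythroid genes 5 were lower (median -0.77), and 1 without tumour 8, without NASH liver 2 or without tumours 5 and 9. Alas2, the haem synthesis enzyme of red cells, fell by 2.62. Hbb-bs and Hbb-b1, near-identical globin genes, each stood at -0.85, with calls lost without tumour 8 or without NASH liver 2. Of 14 pancreatic acinar genes 12 did not pass the filter on low values, Prss1, Cpa1 and Pnlip among them, and of the 2 kept, Spink1 was higher and Cela1 did not pass (-0.25, adjusted p = 0.756), a median of 2.61. Of 12 muscle genes 1 passed the filter, with no call. Of 9 adipocyte genes 5 were kept, 2 of them higher and 3 lower. The part of these cells in the results was not tested.

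The 12 expressed genes with the largest SD over the tumours showed different groupings. They were picked for their spread over these same tumours, so their order is no separate evidence that the tumours form pairs. No grouping of the tumours was tested. H19, an imprinted fetal RNA, stood at 9.94, 8.66, 14.56 and 6.42 in tumours, against 4.47, 4.78 and 6.72 in NASH livers. Tumour 8 was far above and tumour 9 overlapped the NASH livers. Its difference of 4.57 ± 1.42 (adjusted p = 0.0106) lost the call without tumour 8 (3.02, adjusted p = 0.0602), without NASH liver 2 (0.0508) and in a fit of these libraries alone (0.0782). Elovl6, a fatty acid elongase that acts with Fasn, stood at 7.95, 8.40, 12.47 and 7.02 in tumours, against 9.45, 9.73 and 9.68 in NASH livers, so tumour 8 alone was above. Cyp2a4, a testosterone hydroxylase favoured in female livers, stood at 7.14, 14.65, 11.89 and 7.84 in tumours, against 11.54, 10.48 and 10.19 in NASH livers. Tumours 7 and 8 lay above and tumours 5 and 9 below the NASH livers, and the mean difference was -0.36 ± 1.42 (adjusted p = 0.857). The female-favoured gene Cyp2b9 had the same order of pairs, at 6.28, 9.72, 9.79 and 4.43 in tumours, against 10.50, 10.39 and 10.55 in NASH livers.

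Fam174b, a membrane protein gene, and Steap2, a metalloreductase, divided the same tumours the other way. Fam174b stood at 9.94, 5.54, 5.42 and 9.84 in tumours, against 6.14, 5.89 and 5.81 in NASH livers, and Steap2 at 9.26, 4.42, 6.69 and 9.26 in tumours, against 4.84, 4.64 and 4.81 in NASH livers. Reln, a secreted protein that stellate and lymphatic cells express, stood at 6.22, 9.72, 9.19 and 4.93 in tumours, against 8.50, 8.64 and 9.08 in NASH livers. Cd5l, a protein secreted by Kupffer cells, stood at 7.45, 9.99, 10.33 and 5.53 in tumours, against 10.68, 10.65 and 10.44 in NASH livers. Apoa4, an apolipoprotein, stood at 10.54, 15.36, 13.55 and 10.95 in tumours, against 14.06, 15.15 and 14.34 in NASH livers, and Serpina12, the adipokine vaspin, at 4.89, 10.92, 9.61 and 6.32, against 5.13, 6.66 and 5.10. Tspan8, an epithelial tetraspanin, fell outside this order, at 8.46, 10.73, 8.28 and 4.31 in tumours, against 5.73, 5.96 and 6.05 in NASH livers. Peg3, an imprinted gene, had the same order of pairs as Fam174b, at 9.04, 6.05, 4.23 and 9.56 in tumours, against 3.97, 3.90 and 4.49 in NASH livers. Of these genes Cyp2b9, Steap2, Cd5l, Tspan8 and Peg3 passed with all libraries and lost the call in a fit of these libraries alone (adjusted p of 0.117, 0.11, 0.148, 0.258 and 0.0891). Without tumours 5 and 9 the calls of Cyp2b9 (-0.73, adjusted p = 0.547), Steap2 (0.79, 0.435), Cd5l (-0.43, 0.618) and Peg3 (1.02, 0.294) were also lost.

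**Figure D3:**
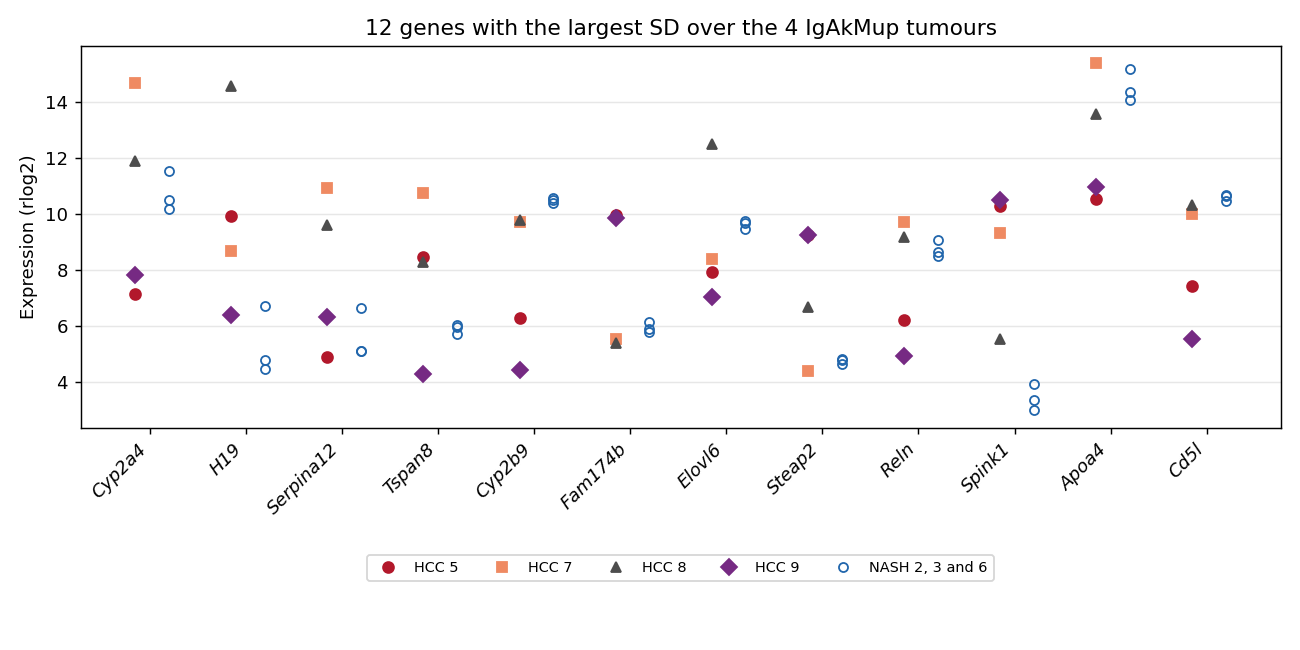
Expression (rlog2, vertical axis) of the 12 genes with the largest SD over the 4 IgAkMup tumours, among genes whose mean over those 7 libraries was 6 or more. Filled symbols are the tumours by number and open circles the 3 NASH livers. Tumours 7 and 8 lie above tumours 5 and 9 for Cyp2a4, Serpina12, Cyp2b9, Elovl6, Reln, Apoa4 and Cd5l, and below them for Fam174b, Steap2 and Spink1.

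The same contrast in MupHe mice was then set against that of IgAkMup mice, as a difference of differences with a test of its own. In this test 595 genes were positive (4.82%) and 641 negative (5.20%), 10% in all. The MupHe NASH libraries carry the column tag Tri and the other 3 groups the tag SS, which the labels do not explain, so genotype and tag cannot be told apart here. In a fit of these 4 groups alone 13 genes passed, all positive, and 1897 had an unadjusted p under 0.05. No gene passed when a difference of at least 1 was required (limma treat), with 38 at an unadjusted p under 0.05.

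The 13 genes that passed in the smaller fit included Malat1, a nuclear long RNA, and Leng8, Ccnl2, Pnisr, Snrnp70 and Pnn, which encode proteins of RNA processing. Malat1 stood between 9.85 and 11.36 in IgAkMup tumours, against 9.31, 8.27 and 9.38 in IgAkMup NASH livers. It stood at 9.63 ± 0.30 in MupHe tumours (SD, n = 4), against 11.13 ± 0.21 in MupHe NASH livers (SD, n = 3). The difference between genotypes was 3.08 ± 0.46 (limma adjusted p = 0.00031), or 0.0479 in the smaller fit. In the other non-tumour HFD livers Malat1 stood at 8.88 ± 0.85 in B6 controls (SS) and 11.16 ± 0.13 in IgAkCLM controls (Tri, SD, n = 3 each). Those controls differ in genotype as well as in tag, so the 2 cannot be told apart there either. Neat1, another nuclear RNA, stood at 7.34 ± 0.73 in the SS-tagged B6 and 9.88 ± 0.46 in the Tri-tagged IgAkCLM controls, and Leng8 at 7.00 ± 0.47 and 8.91 ± 0.12 in the same order. Neat1 differed between genotypes by 2.81 ± 0.52, Leng8 by 2.04 ± 0.27 and the nuclear RNA Firre by 2.15 ± 0.39.

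Other differences lay on the tumour side or the NASH side. Sgpp2, a phosphatase of sphingosine phosphate, stood at 7.72, 3.22, 6.73 and 5.39 in IgAkMup tumours, against 2.95 to 3.00 in IgAkMup NASH livers, and at 2.78 ± 0.42 in MupHe tumours, against 3.09 ± 0.29 in MupHe NASH livers (difference 3.10 ± 0.73, adjusted p = 0.008). Tumour 7 did not share the rise of the other IgAkMup tumours. The group means of Sgpp2 lay between 2.55 and 3.09 outside the IgAkMup tumours, where the mean was 5.77. It thus passed the filter at a mean of 3 only through the group where it is high, and its place among the tested genes adds no support. Phgdh rose by 3.41 in IgAkMup and stood at 1.25 in MupHe (difference 2.16 ± 0.66), and Myo5c rose by 3.54 and stood at 1.08 (difference 2.47 ± 0.65). Jchain stood at 1.63 in IgAkMup and -0.75 in MupHe, a difference of 2.38 ± 0.70 (adjusted p = 0.029) that lost the call without tumour 8, NASH liver 3 or NASH liver 6 of IgAkMup. For Serpina3c the difference of -3.90 ± 0.56 (adjusted p = 0.000255) came with a MupHe NASH level of 3.23 ± 0.16, near the 2.94 ± 0.08 of MupHe tumours (SD). The IgAkMup tumours, at 3.66 to 6.74, lay above every MupHe NASH liver (3.39 at most). Of the 8 most positive and the 8 most negative differences, only Malat1 and Leng8 passed in the fit of 4 groups alone.

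Ubd, an interferon-γ and TNF-induced ubiquitin-like protein, rose less in IgAkMup. It stood at 7.77, 7.29, 9.45 and 8.80 in IgAkMup tumours, against 6.11, 6.66 and 6.78 in IgAkMup NASH livers, and at 10.41 ± 1.34 in MupHe tumours, against 5.66 ± 0.48 in MupHe NASH livers (difference -2.94 ± 0.71, adjusted p = 0.0096). Gstp2, a glutathione transferase, rose by 2.14 in IgAkMup and by 4.85 in MupHe (difference -2.71 ± 0.74). Cyp2f2, a periportal P450 also known from lung, stood at 8.36, 9.72, 10.65 and 8.72 in IgAkMup tumours, against 12.26, 12.19 and 12.42 in IgAkMup NASH livers, but at 12.22 ± 1.47 in MupHe tumours, against 12.32 ± 0.23 in MupHe NASH livers (difference -2.83 ± 0.67, adjusted p = 0.0086). Ces1f, a carboxylesterase, differed by -2.36 ± 0.69, Car3, a carbonic anhydrase, by -2.07 ± 0.55, Gsn, the actin-severing gelsolin, by -2.27 ± 0.74 and Mogat2, a monoacylglycerol acyltransferase, by -2.10 ± 0.49.

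**Figure D4:**
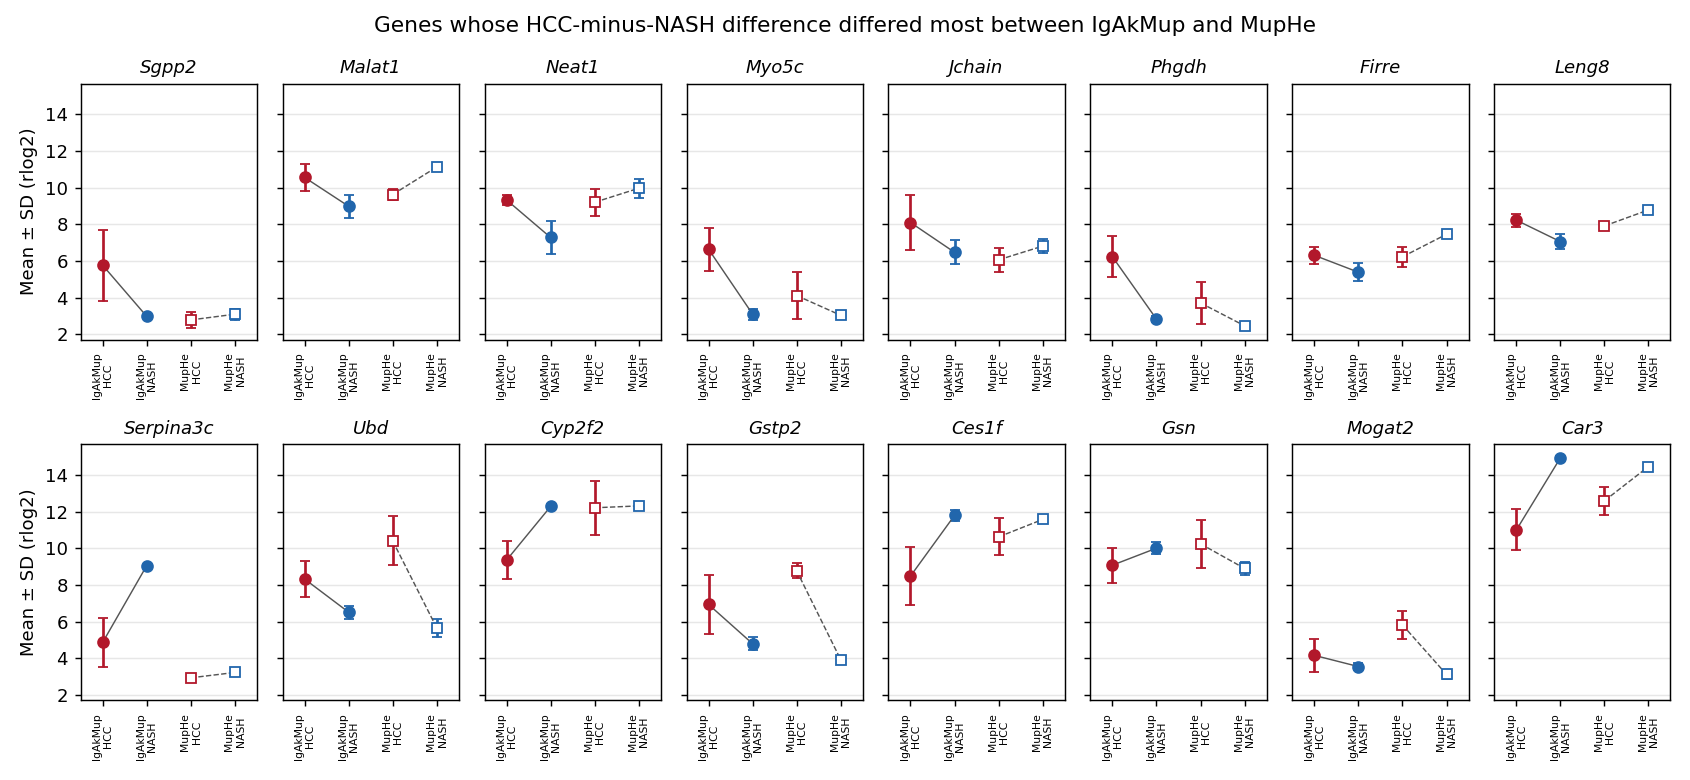
Mean and SD (rlog2, vertical axis) of the 8 genes with the most positive (top row) and the 8 with the most negative (bottom row) difference between genotypes in the HCC-minus-NASH contrast, in IgAkMup HCC, IgAkMup NASH, MupHe HCC and MupHe NASH (n = 4, 3, 4 and 3). Filled circles and solid lines are IgAkMup, open squares and dashed lines MupHe; Malat1 is 10.56 in IgAkMup HCC against 8.99 in IgAkMup NASH, and 9.63 in MupHe HCC against 11.13 in MupHe NASH.

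Among the lists, oxidative phosphorylation held most genes with a difference between genotypes. Of its 27 genes 22 were negative and none positive, with a median HCC-minus-NASH difference of -0.77 in IgAkMup and -0.07 in MupHe. After quantile normalization 3 were negative, without IgAkMup NASH liver 2 it was 8, without MupHe NASH liver 2 it was 12, and in the fit of 4 groups alone none passed, with 22 at an unadjusted p under 0.05. Of 31 proteasome genes 8 were negative, of 26 genes of nitrogen metabolism 7, and of 28 fatty acid oxidation genes 4. Of all 12337 genes 641 were negative (5.20%). After quantile normalization the list counts were 3, 2 and 0, and 375 of all genes were negative. Without IgAkMup NASH liver 2 they were 4, 2 and 1, and 253 of all genes. Without MupHe tumour 3 they were 13, 11 and 14, and 1325 of all genes. In the fit of 4 groups alone the list counts were all 0, with 8, 8 and 5 genes at an unadjusted p under 0.05. Of 22 NRF2 targets 4 were negative and none positive, with median HCC-minus-NASH differences of 0.71 in IgAkMup and 1.49 in MupHe. For these targets 3 were negative and 1 positive after quantile normalization, and 1 was negative without IgAkMup NASH liver 2. In the fit of 4 groups alone none of them passed, with 7 at an unadjusted p under 0.05. Uqcrfs1, a subunit of respiratory complex III, stood at -1.03 in IgAkMup and -0.05 in MupHe (difference -0.99, adjusted p = 0.0128).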

How the data were processed

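The log2 values are regularized log2 (rlog2) levels that the authors deposited as 1 table of 24511 genes and 41 libraries, per the file header. The submitters' processing notes name mm10, STAR, Cuffdiff, HOMER and DESeq2 without versions, and the labels' protocols describe stranded libraries of polyadenylated RNA. The filter kept 12337 genes whose mean reached 3 across the 35 libraries mapped to one group, and 6 columns that match more than one group were not used. Group means were fitted with limma 3.58.1 in R 4.3.3 (moderated variances with a trend), p-values were adjusted by Benjamini-Hochberg over all kept genes and 0.05 was the threshold. The genotype difference is IgAkMup HCC minus NASH less MupHe HCC minus NASH. The fit was tested on simulated data. The labels do not say that replicates came from separate animals, so p-values measure only the spread between these libraries. The rlog2 transform draws low genes toward their mean, which shrinks their differences.

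The members and gene lists were chosen with earlier results of these data known. Named by rule were the 15 largest rises and 15 largest falls with an adjusted p under 0.05 and no overlap, the 3 leading genes of each list, the 8 most positive and 8 most negative genotype differences, the 12 genes with the largest SD over tumours, and Plau, Cd8a, Pigr, Jchain and Alb. Chosen after their values were seen were Asns, Axin2, Ccnb2, Ccnl2, Cd274, Cdk1, Chac1, Ciita, Col1a1, Cps1, Cx3cr1, Cyp1a2, Cyp7a1, Ddit3, Epcam, Fasn, Fgf21, Glul, Gpnmb, Hmox1, Hnf4a, Itgax, Krt19, Lgr5, Nqo1, Otc, Plk1, Pnisr, Pnn, Psph, Shmt2, Snrnp70, Stab2, Tbx3 and Timd4. Alternatives were a fit of the compared groups alone, other filters, median centring, quantile normalization, array weights, a minimum difference of 1 (treat) and leaving out libraries. Promoter sequences are from RefSeq on GRCm38.p6. Some genes of the lists are counted but not reported here by name.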

Additional observations from a re-analysis of the deposited data

Results flagged for a closer look

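Among 258 sets of 4 tumours examined (named genes and list medians), 1 tumour stood far from the other 3 in 10, which is no more than the about 1 in 20 that chance flags. The genes were Gstp2 in tumour 8 (4.51), Cidec in tumour 7 (8.27), Psat1 in tumour 7 (8.93), Casp4 in tumour 5 (5.79), Psmb7 in tumour 8 (9.28), Asns in tumour 8 (7.5), Axin2 in tumour 7 (3.99) and Cd274 in tumour 5 (5.43), all as rlog2 levels. The list medians were those of fatty acid oxidation in tumour 8 (-1.3) and of the chaperones of the endoplasmic reticulum in tumour 7 (0.46), as differences from the NASH mean.

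Of 204 named genes 30 had a different HCC-minus-NASH difference in IgAkMup than in MupHe mice by the limma test of that difference. Of these, 16 were named as the most extreme values of this same difference, and Pnisr, Ccnl2, Snrnp70 and Pnn after their values were seen, so the count is set in part by the choice. Without the 16 it was 14 of 188, against 10% of all genes tested. In this contrast the column tag and the genotype cannot be told apart. Positive differences (IgAkMup minus MupHe, log2) were Sgpp2 3.1, Malat1 3.08, Neat1 2.81, Myo5c 2.47, Jchain 2.38, Phgdh 2.16, Firre 2.15, Leng8 2.04, Pnisr 1.8, Ccnl2 1.78, Snrnp70 1.3, Pnn 1.23 and Col4a2 0.97. Negative differences were Serpina3c -3.9, Ubd -2.94, Cyp2f2 -2.83, Gstp2 -2.71, Ces1f -2.36, Gsn -2.27, Mogat2 -2.1, Car3 -2.07, Prodh -1.68, Ass1 -1.52, Apol9b -1.34, Nqo1 -1.11, Idh1 -1.01, Uqcrfs1 -0.99, Uqcrb -0.75, Shmt2 -0.66 and Psmb7 -0.61.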

How the results depend on the processing

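No paired analysis was possible because the columns of the compared tumours and NASH livers do not carry the replicate numbers of the sample titles, so a shared number cannot be tied to a library. With all groups fitted, 2857 genes were higher and 2551 lower in IgAkMup tumours. The fit of the compared groups alone gave 1599 and 1620, of which 3151 of 3219 calls were shared with the larger fit. A filter at a mean of 6 gave 1579 higher, and a required difference of at least 1 gave 101 higher and 164 lower. Leaving out 1 library gave 2183 to 2892 higher and 2000 to 2570 lower. The genotype difference, with 595 positive and 641 negative genes, came to 13 and 0 in the fit of 4 groups alone, to 375 negative after quantile normalization, and to 0 and 0 with a required difference of 1. Leaving out 1 library gave 275 to 1111 positive and 253 to 1325 negative genes, lowest without IgAkMup NASH liver 2 and highest without MupHe tumour 3. Both counts also fell by over 1.5 times without IgAkMup NASH liver 3 (355 and 404) or MupHe NASH liver 2 (342 and 313). Of 191 named genes with all libraries, 36 lost the call in the fit of these groups alone, 106 with a required difference of 1, 16 after quantile normalization and 31 without tumours 5 and 9. Signs turned after quantile normalization for Alb (-0.52), Epcam (-0.0431) and Hnf4a (0.49), and without tumours 5 and 9 for Cyp2a4 (2.54), Fam174b (-0.46), Elovl6 (0.81), Reln (0.72), Ddit3 (0.0759), Epcam (-0.42), Fasn (1.05) and Hmox1 (0.63). Over fits without 1 library the difference also changed sign for Alb (-0.0272 to 0.40), Cyp2a4 (-1.78 to 0.72), Epcam (-0.53 to 0.40), Hmox1 (-0.35 to 0.22) and Krt19 (-0.88 to 0.12). The causes were not tested. Depth is unknown, so precision for low genes cannot be stated from counts.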
